A study of Caenorhabditis elegans with 24 samples.

Results

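The nuclear hormone receptor genes of *C. elegans* whose names start with nhr- were examined in tdp-1(ok803) and wild-type animals, the latter of strain N2-CGC B. The gene table of the poly(A) RNA-seq held 283 such genes among 45642 genes. Of these, 207 were expressed, meaning that the normalized count was 10 or more in at least 3 of the 6 poly(A) libraries. The J2-IP table held 39 of them.

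Nuclear hormone receptors are transcription factors with a zinc-finger domain that binds DNA and a second domain that can bind small lipophilic molecules such as sterols, fatty acids and their derivatives. The family is much larger in nematodes than in mammals or insects, and most members belong to a nematode expansion related to the mammalian receptor HNF4. Members with a known role mainly control molting, fat and nutrient metabolism, or the response to toxins, pathogens and low oxygen. Most members have no described role.

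TDP-1 is the worm ortholog of TDP-43, an RNA-binding protein, and tdp-1(ok803) is a deletion allele of its gene. Poly(A) RNA was sequenced from L4 larvae grown at 20°C, with 3 wild-type and 3 tdp-1(ok803) libraries. RNA recovered with J2, an antibody that binds double-stranded RNA, was sequenced from young adults grown at 15°C, with 3 libraries of each genotype and 1 input library of each. The mutant was represented by this single allele, and whole animals were used, so fewer cells of a type and less RNA per cell cannot be told apart. The study describes the J2-IP libraries as made from biologically separate lysates and the poly(A) replicates it plotted, fewer than the labels number, as biological replicates. The labels number the libraries and name no culture or batch, and the p-values rest on the spread between these libraries.

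The poly(A) libraries held between 65546397 and 107297985 recovered reads. Counts of tdp-1 itself were 2156, 3501 and 4322 in wild-type animals against 914.6, 3542 and 3478 in tdp-1(ok803). The count covers the whole gene, including any part left by the deletion, so it does not check the labels. In the input RNA the tdp-1 value was 38 in wild-type animals against 12 in the mutant, while the J2-IP values went the other way, with 27, 27 and 25 against 53, 61 and 50. If the mutant J2-IP values were scaled to the wild-type input, as taken below, the lower mutant input raises them. The direction of the J2-IP difference thus depends on that scaling, which could not be verified. The first principal component of the poly(A) values held 55.6% of the variance and separated the replicate 1 libraries of both genotypes from the other 4. Every poly(A) comparison is therefore also given for replicates 2 and 3 alone where it changes a call. The genes of sperm and yolk also differed between these libraries. The summed normalized count of the 35 major sperm protein genes (msp-, 4 of them at 0 in every library) was 23438, 93636 and 124743 in wild-type replicates 1 to 3 and 22970, 50553 and 52979 in tdp-1(ok803). The sum of the 6 vitellogenin genes (vit-, yolk proteins of the adult intestine, none at 0 in every library) was 186941, 483193 and 523411 in wild-type animals against 88283, 120614 and 149463 in tdp-1(ok803).

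The receptor genes differed widely in whether they were expressed in L4 larvae. The 207 expressed members were 73.1% of the 283, where 34.6% of all genes in the table and 77.2% of the 19022 protein-coding genes met the same rule. Another 49 members had reads but did not meet it, and 27 were at 0 in all 6 libraries. By the WBcel235 annotation of RefSeq, which matched 281 members, 174 lay on chromosome V, and 134 of those were expressed. On chromosome III 7 of 8 members were expressed, on IV 27 of 34, on X 18 of 24, on II 8 of 16 and on I 11 of 25. Of the 14 members annotated as pseudogenes, 7 were expressed. Members lying side by side formed 47 runs, the largest with 8 members, and 106 of the 143 members in runs were expressed, against 99 of the 138 that stood alone.

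Among the expressed members, 163 had a mean normalized count of at least 100, 48 of at least 1000 and 3 of at least 5000. The counts are not divided by gene length, so their order is an order of counts and not of transcript levels. The 10 highest mean counts were those of nhr-97, nhr-49, nhr-31, nhr-68, nhr-46, nhr-23, nhr-35, nhr-1, nhr-41 and nhr-66. The highest, nhr-97, had counts of 11048, 8277 and 9923 in wild-type animals against 11266, 10854 and 10876 in tdp-1(ok803). nhr-31, which is needed for the excretory cell tubule, had counts of 4580, 5639 and 4794 in wild-type animals against 7195, 5593 and 5584 in tdp-1(ok803). The genotypes overlapped for both genes. Counts of nhr-46 ran from 3283 to 4910, of nhr-35 from 2323 to 5752 and of nhr-1 from 2410 to 4096 over the 6 libraries, again with overlap between genotypes.

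The main question of the poly(A) comparison was whether loss of TDP-1 changed the abundance of these transcripts. No member passed an adjusted p under 0.05 (limma with Benjamini-Hochberg adjustment over 15807 genes), and no gene of the whole table did, so 0.0% of all genes were called in each direction. At an unadjusted p under 0.05, 3 of the 207 members were higher in tdp-1(ok803), where 1.51% of all genes were, and 1 was lower, where 1.1% of all genes were. edgeR's quasi-likelihood test and DESeq2 on the recovered reads also called 0 members, and over all genes DESeq2 called 7 higher (0.0443%) and 10 lower (0.0633%). With the replicate number as a block 0 members passed, where 0.00633% of all genes rose and 0.0% fell. The median log2 difference of the members, tdp-1(ok803) minus wild-type on the log2(normalized count + 1) scale, was 0.03, beside -0.02 for all genes. It was -0.33, 0.02 and 0.31 in the pairs of replicates 1, 2 and 3, beside -0.04, -0.05 and 0.002 for all genes. Over replicates 2 and 3 alone the median of the members was 0.21, beside -0.004 for all genes. Of the 207 members, 170 differed by less than 0.5 on this scale and 15 by 1 or more.

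The receptors with described roles in molting and larval development were among those with small differences. All 6 were expressed, 4 with a positive and 2 with a negative log2 difference, and their median was 0.03. nhr-23, the ortholog of the insect receptor DHR3 and a driver of the molting cycle, had counts of 3187, 2959 and 3940 in wild-type animals against 4622, 2616 and 3344 in tdp-1(ok803). nhr-25, the ortholog of FTZ-F1, which acts in the epidermis and in molting, had 1030, 704.9 and 816.1 against 1350, 827.1 and 882.2. nhr-85, the ortholog of the insect receptor E75 and of REV-ERB, had 1569, 827.4 and 1016 against 1466, 748.8 and 868.5. For these 3 genes the genotypes overlapped, and the highest library of each genotype was replicate 1, other than wild-type nhr-23.

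nhr-41, the ortholog of the insect receptor DHR78, had counts of 3920, 2637 and 3645 in wild-type animals against 2706, 2134 and 2924 in tdp-1(ok803), a log2 difference of -0.39 ± 0.26 (SE). nhr-6, the worm NR4A receptor, which acts in the spermatheca, had 504.2, 251.3 and 357.8 against 598.8, 372.9 and 421.1. nhr-67, the ortholog of tailless, had the lowest counts of the 6, between 61.98 and 102 in all libraries. None of these separated the genotypes.

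Among the other receptors with orthologs outside nematodes, nhr-91, related to the germ cell nuclear factor of vertebrates, had counts of 1260, 665 and 633.9 in wild-type animals against 2087, 1026 and 1023 in tdp-1(ok803). Each mutant library was above the wild-type library of the same number, by 1.66-, 1.54- and 1.61-fold, while the groups overlapped because wild-type replicate 1 was above mutant replicates 2 and 3. The log2 difference was 0.68 ± 0.40 (SE). With the replicate number as a block the adjusted p was 0.343 (limma). nhr-48, related to the vitamin D receptor group, had 4240, 1873 and 2423 against 3482, 1622 and 1896. nhr-239 was near the limit of expression, between 2.36 and 18.63 in all libraries, and nhr-111 was listed at 0 in every library.

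**Figure D1:**
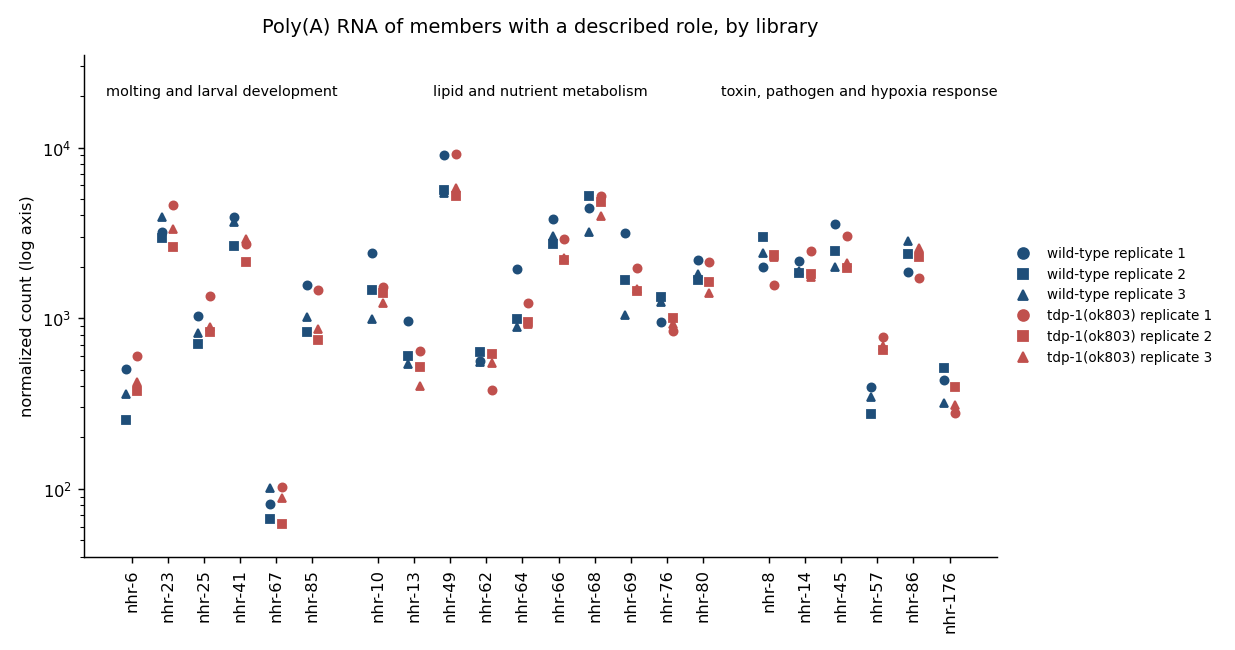
Normalized counts (log axis) of the 22 expressed members of the lists on molting, metabolism and stress response in each poly(A) library, blue for wild-type and red for tdp-1(ok803), with a symbol for each replicate number. The genotypes overlap for every gene shown except nhr-57, whose 3 mutant libraries lie between 651.3 and 780.7 and whose wild-type libraries lie between 275.8 and 395.

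The receptors of lipid and nutrient metabolism did not separate the genotypes either. Of the 11 in the list, 10 were expressed, 2 with a positive and 8 with a negative log2 difference, and the median was -0.18. nhr-49, a regulator of fatty acid breakdown and desaturation, had counts of 8994, 5653 and 5395 in wild-type animals against 9120, 5214 and 5770 in tdp-1(ok803). nhr-80, which acts on fatty acid desaturase genes, had 2178, 1674 and 1809 against 2134, 1619 and 1404. nhr-13 and nhr-66 can bind NHR-49. nhr-13 had 959.6, 601.5 and 538.7 against 639.6, 519.2 and 401, and nhr-66 had 3791, 2731 and 3030 against 2918, 2197 and 2239. Their log2 differences of -0.41 ± 0.34 (SE) for nhr-13 and -0.38 ± 0.24 (SE) for nhr-66 were the largest of the list and had an adjusted p of 1.0 (limma).

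nhr-10 and nhr-68 control the propionate shunt, a pathway that breaks down propionate when vitamin B12 is low. nhr-10 had counts of 2411, 1459 and 990.3 in wild-type animals against 1521, 1410 and 1234 in tdp-1(ok803), and nhr-68 had 4450, 5200 and 3194 against 5199, 4767 and 3956. nhr-62, needed for long life under dietary restriction, ran from 380.6 to 635.1, nhr-64 from 881.8 to 1937, nhr-69 from 1051 to 3138 and nhr-76, which acts in serotonin-induced fat loss, from 837.4 to 1335. The genotypes overlapped for each of them. nhr-114, which protects the germline when dietary tryptophan is low, was listed at 0 in every poly(A) library. Its annotated span lies within that of Y45G5AM.9.

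Of the 6 receptors that act in the response to toxins, pathogens and low oxygen, nhr-57 differed between all libraries of the genotypes. nhr-57, whose transcript is induced by the hypoxia factor HIF-1, had counts of 395, 275.8 and 347.1 in wild-type animals against 780.7, 651.3 and 683.8 in tdp-1(ok803). The groups did not overlap, and the mutant was 1.98-, 2.36- and 1.97-fold above wild-type in replicates 1, 2 and 3. The log2 difference was 1.06 ± 0.28 (SE), with an adjusted p of 1.0 (limma) over all 3 replicates and 0.0411 over replicates 2 and 3. Its annotated span overlaps lgc-1.

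The remaining receptors of that list overlapped between genotypes. nhr-8, which acts in xenobiotic resistance and sterol metabolism, had counts of 1985, 2972 and 2400 in wild-type animals against 1565, 2337 and 2282 in tdp-1(ok803). nhr-14, which acts in iron uptake and pathogen defence, had 2171, 1844 and 1879 against 2469, 1820 and 1733. nhr-86, which responds to a bacterial metabolite, had 1858, 2379 and 2836 against 1710, 2278 and 2569. nhr-45, linked to mitochondrial stress, had 3582, 2473 and 2003 against 3016, 1961 and 2100, and nhr-176, needed for the response to thiabendazole, had 435.1, 507.1 and 320.3 against 277.7, 394.2 and 310.3.

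Among all expressed members with a mean count of at least 50, the 5 largest rises in log2 difference were those of nhr-235, nhr-263, nhr-237, nhr-234 and nhr-148, for none of which a role is given here. nhr-235 had counts of 66.75, 19.05 and 34.84 in wild-type animals against 209.4, 137.2 and 192.1 in tdp-1(ok803), a log2 difference of 2.28 ± 0.54 (SE). All mutant libraries were above all wild-type libraries. nhr-234, the neighbour of nhr-235 on chromosome II, had 1110, 439.1 and 383.3 against 1294, 1515 and 967.7, with a log2 difference of 1.11 ± 0.44 (SE) and an overlap that came from wild-type replicate 1. Neither passed the threshold over 3 replicates (adjusted p of 1.0, limma), while over replicates 2 and 3 the adjusted p was 0.0286 for nhr-235 and 0.0196 for nhr-234.

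nhr-263 and nhr-148 are also neighbours, on chromosome V. nhr-263 had counts of 75.39, 37.2 and 8.04 in wild-type animals against 102.9, 89.41 and 42.21 in tdp-1(ok803), which overlapped. nhr-148 had 69.89, 51.71 and 24.12 against 72.74, 95.51 and 128.7, which did not. The annotated span of nhr-148 overlaps srh-244, so its reads may not all be its own. nhr-237 had 95.02, 64.41 and 16.08 against 115.3, 130.1 and 88.64, which overlapped by 1 library of each genotype. The log2 differences were 1.31 ± 0.83 (SE) for nhr-263, 1.1 ± 0.53 (SE) for nhr-148 and 1.22 ± 0.68 (SE) for nhr-237, with an adjusted p of 1.0 for each (limma). Much of these values came from wild-type replicate 3, without which they were 0.46 for nhr-263, 0.67 for nhr-148 and 0.49 for nhr-237, and without wild-type replicate 1 that of nhr-263 was 1.99.

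The 5 largest falls were those of nhr-53, nhr-193, nhr-88, nhr-78 and nhr-33, and none of them passed the threshold (adjusted p of 1.0 for each, limma). nhr-193 had counts of 388.7, 459.1 and 427.5 in wild-type animals against 257.3, 253 and 203.7 in tdp-1(ok803), a log2 difference of -0.84 ± 0.29 (SE). nhr-78 had 322, 393.7 and 340.4 against 187.2, 251 and 272.3, and nhr-33 had 408.4, 569.7 and 528 against 321.1, 363.8 and 313.4. For these 3 genes every mutant library was below every wild-type library. nhr-53 had 198.7, 45.36 and 69.69 against 107.3, 25.4 and 32.71, and nhr-88 had 5854, 1440 and 1675 against 3147, 1172 and 1064. The replicate 1 libraries of both genotypes were the highest for nhr-53, and for nhr-88 as well, and each mutant library was below the wild-type library of the same number. The ratios of mutant to wild-type were 0.537, 0.814 and 0.635 for nhr-88 and 0.54, 0.56 and 0.469 for nhr-53. For nhr-88 the log2 difference was -0.62 ± 0.62 (SE) without the replicate block and ± 0.20 (SE) with it, and the adjusted p with the block was 0.366 (limma). It was -0.48 over replicates 2 and 3, and 0.02 when wild-type replicate 1 alone was left out.

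**Figure D2:**
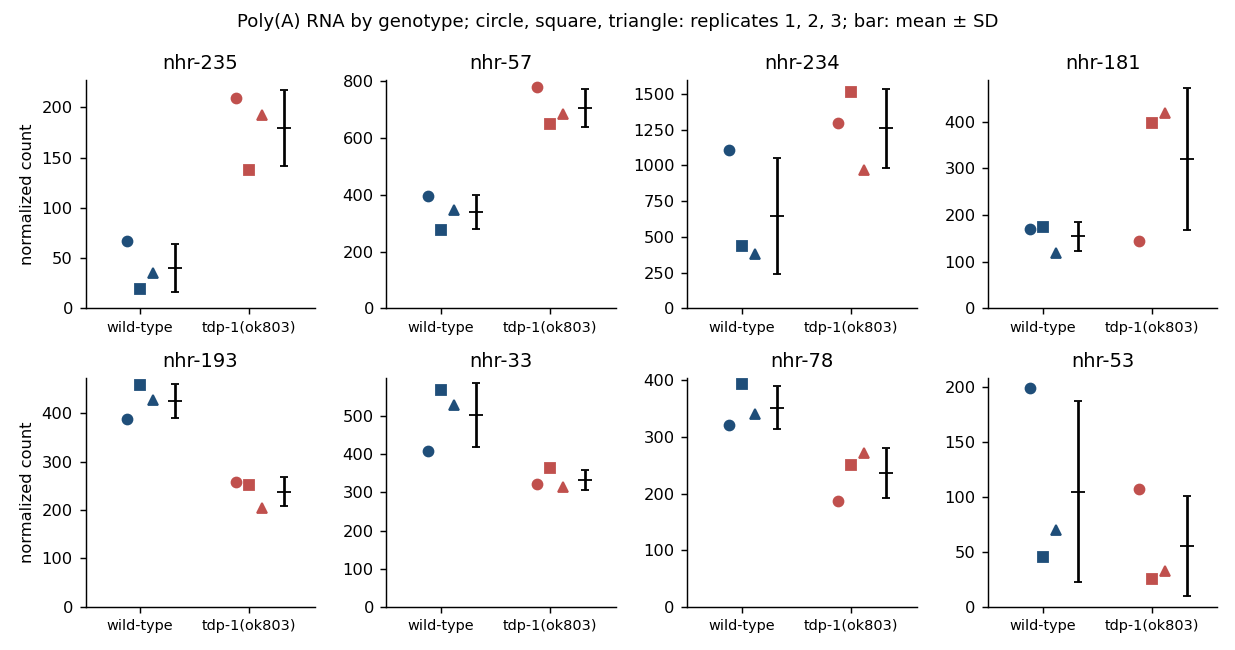
Normalized counts of 8 members in poly(A) RNA by genotype, with 3 libraries a group and the mean ± SD beside them. nhr-235, nhr-57, nhr-193, nhr-33 and nhr-78 show no overlap between genotypes, nhr-234 and nhr-181 overlap through a replicate 1 library, and nhr-53 overlaps because mutant replicate 1 lies above wild-type replicates 2 and 3.

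In all, 10 members had every tdp-1(ok803) library above every wild-type library, where 4.43% of all genes did, and 8 had every mutant library below, where 3.49% of all genes did. These were 4.83% and 3.86% of the 207 members, close to the shares over all genes. The 10 were nhr-20, nhr-57, nhr-123, nhr-127, nhr-130, nhr-147, nhr-148, nhr-183, nhr-188 and nhr-235, and the 8 were nhr-33, nhr-78, nhr-121, nhr-128, nhr-155, nhr-193, nhr-256 and nhr-286. When replicates 2 and 3 were taken alone, nhr-57, nhr-181, nhr-234 and nhr-235 rose, 4 of 207 members where 2.09% of all genes rose, and 0 members fell, where 2.2% of all genes fell (limma, adjusted p under 0.05). nhr-181 had counts of 170.4, 174.2 and 117.9 in wild-type animals against 144.6, 397.3 and 417.9 in tdp-1(ok803), so its replicate 1 libraries did not share the difference. In the same fit 20 of the 27 tested msp- genes and 6 of 6 vit- genes fell, and the part of these in the members' values was not tested.

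Genes that work with the receptors were taken from lists of the receptors with other names, cofactors, hormone synthesis genes and reported targets, and 0 of their 21 tested genes passed the threshold (limma). daf-12, the receptor for dafachronic acid hormones, had counts of 3839, 2298 and 2674 in wild-type animals against 4523, 2056 and 2395 in tdp-1(ok803). daf-9, the cytochrome P450 that makes those hormones, had 525.4, 200.5 and 243.9 against 775.3, 520.2 and 455.9, and dhs-16, a dehydrogenase of the same pathway, had 388.7, 184.2 and 182.3 against 472.8, 459.3 and 419. dhs-16 separated the genotypes and daf-9 overlapped by wild-type replicate 1. Over replicates 2 and 3 alone both rose (limma, adjusted p of 0.049 for daf-9 and 0.0383 for dhs-16), where 2.09% of all genes rose. The other hormone synthesis genes did not pass in that fit. The log2 difference was 0.09 for daf-36 and -0.43 for ncr-1 (limma, adjusted p of 0.862 and 0.194), and hsd-1 was not expressed. acs-2, an acyl-CoA synthetase gene activated by NHR-49, had 23965, 11104 and 9266 against 6913, 3338 and 4694, with no overlap and a log2 difference of -1.50 ± 0.42 (SE). Over replicates 2 and 3 alone it fell (limma, adjusted p of 0.0149), where 2.2% of all genes fell. Among the 7 tested targets only acs-2 separated the genotypes, and their median log2 difference was -0.13. fat-6, a desaturase gene and reported target of NHR-49 and NHR-80, ran from 42209 to 55806 and did not separate the genotypes. The 5 cofactor genes, among them mdt-15, the Mediator subunit that binds NHR-49, had a median log2 difference of -0.20 and overlapped between genotypes.

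The receptor genes were more often high than low in the replicate 1 libraries. Both replicate 1 libraries lay above all 4 others for 67 of the 207 expressed members, 32.4%, where 24.3% of all genes did, and below all 4 others for 9 members, 4.35%, where 24.8% of all genes did. The median log2 difference between replicate 1 and replicates 2 and 3 was 0.33 for the members and 0.03 for all genes. This split was known from earlier results of these data and is described without a test. In the same libraries 19 of the 27 tested msp- genes and 1 of 6 vit- genes were below all 4 others, and 1 msp- gene was above. The part of the stage or cell content of the cultures in this difference was not tested.

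The members with a mean of at least 50 that were highest in replicate 1 were nhr-54, nhr-53, nhr-88, nhr-18 and nhr-27. nhr-54 had counts of 143.7 and 107.3 in the replicate 1 libraries of wild-type and tdp-1(ok803), and 13.61, 28.14, 30.48 and 46.43 in the others. nhr-18 had 1491 and 928.8 in replicate 1 and between 284.1 and 409.5 in the others, and nhr-27 had 185.3 and 330.9 against 64.41 to 107.7. All of them separated replicate 1 from the rest. Those lowest in replicate 1 were nhr-199, nhr-266, nhr-210, nhr-115 and nhr-74. nhr-199 had 37.69 and 47.02 in replicate 1 and between 81.75 and 130.1 in the others, and nhr-210 had 592.1 and 429.4 against 743.8 to 977.5. nhr-266, nhr-115 and nhr-74 overlapped.

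By role, replicate 1 was above the other libraries for 6 of the 10 expressed receptors of lipid and nutrient metabolism and below for 0. It was above for 3 of the 6 molting receptors and below for 0. Of the 6 stress-response receptors it was above for 2, nhr-14 and nhr-45, and below for 2, nhr-8 and nhr-86. It was above for 5 of 5 cofactor genes. On chromosome V it was above for 30 of the 134 expressed members and below for 6, and on the other chromosomes above for 37 of 71 and below for 3. Over all genes it was above for 24.3% and below for 24.8%, and the shares over all genes of each chromosome were not counted.

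**Figure D3:**
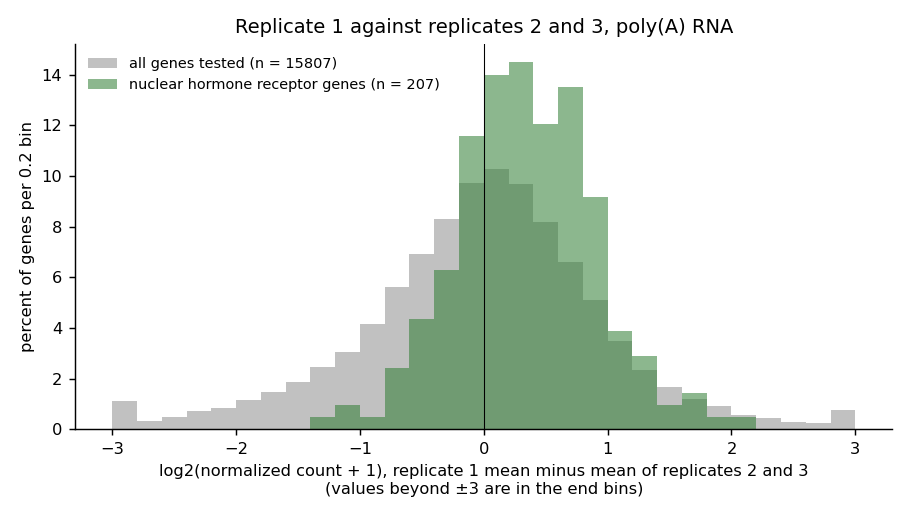
Percent of genes in bins of the log2 difference between the mean of the replicate 1 libraries and the mean of replicates 2 and 3 in poly(A) RNA, green for the 207 expressed members and grey for all 15807 genes. The members centre at 0.33 and few lie below -1, while the distribution of all genes centres at 0.03 and reaches further to both sides.

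The J2-IP addressed which receptor transcripts were recovered with the antibody to double-stranded RNA. Of the 39 members in the table, 26 had a wild-type input value of at least 10, and the J2-IP value was over 1.5-fold above the input in all 3 wild-type libraries for 10 of them, where 20.6% of 6637 genes met this rule. It was below the input in all 3 libraries for 2 members, where 34.4% of genes were. The median of the mean fold was 1.44 over these members and 1.12 over all genes, with 1 input library and therefore no test. The wild-type J2-IP values were taken as not already divided by the input, which could not be verified, and the folds and the 1.5-fold rule depend on it. The depth of the J2-IP and input values is unknown, and the counting error of small values cannot be given.

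The 5 members with the highest J2-IP over input were nhr-97, nhr-114, nhr-274, nhr-88 and nhr-61. nhr-97 had wild-type J2-IP values of 359, 351 and 369 against an input of 72, a mean fold of 5.00 ± 0.13 (SD, n = 3 J2-IP libraries). nhr-114 had 55, 49 and 55 against 12, nhr-274 had 75, 69 and 83 against 25, nhr-88 had 77, 81 and 85 against 34, and nhr-61 had 32, 35 and 42 against 16. nhr-114 thus had values here while it was listed at 0 in poly(A) RNA, and, since it lies within Y45G5AM.9, its reads may not all be its own. The span of nhr-61 overlaps rpl-37.1, a ribosomal protein gene. nhr-23, nhr-46, nhr-48, nhr-86 and nhr-119 made up the 10, with mean folds between 1.55 and 2.19.

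The 5 members with the lowest J2-IP over input were nhr-104, nhr-41, nhr-20, nhr-19 and nhr-138. nhr-104 had values of 16, 24 and 15 against an input of 33, and nhr-41 had 42, 36 and 45 against 68, so all 3 libraries were below the input. nhr-20, nhr-19 and nhr-138 lay on either side of their inputs of 15, 14 and 13. nhr-243, nhr-13 and nhr-76 had higher folds, with wild-type J2-IP values of 21, 25 and 27 for nhr-243, 16, 15 and 21 for nhr-13 and 23, 22 and 29 for nhr-76, but their inputs of 4, 4 and 6 were below the minimum.

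**Figure D4:**
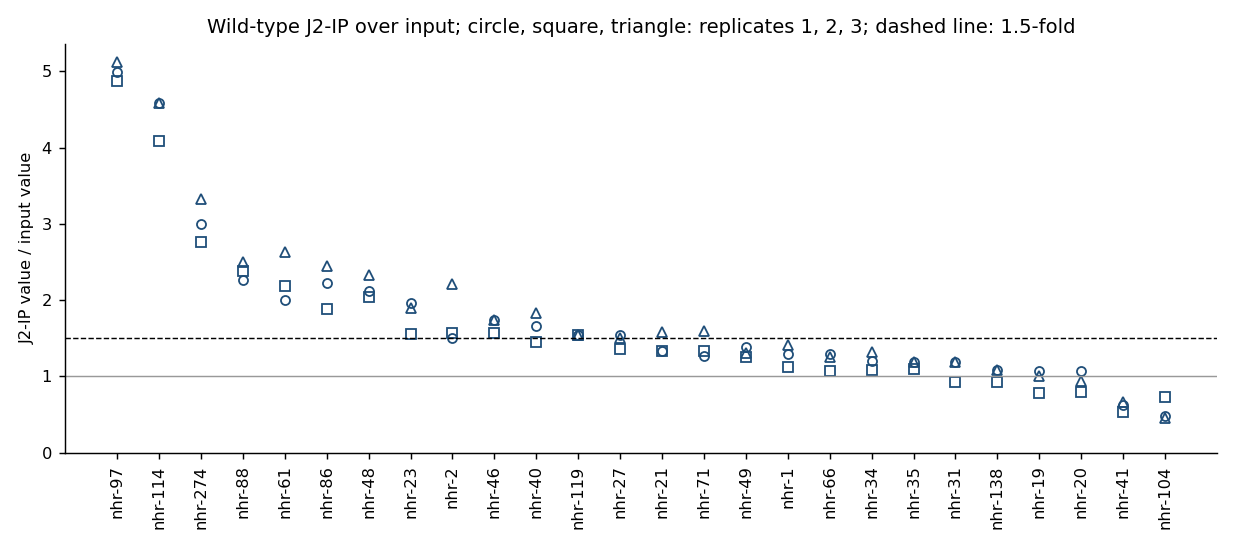
J2-IP value divided by the input value for the 26 members with a wild-type input of at least 10, with a point for each of the 3 wild-type J2-IP libraries and a dashed line at 1.5-fold. nhr-97, nhr-114 and nhr-274 stand highest and nhr-41 and nhr-104 lie below 1 in all 3 libraries.

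The input RNA of the young adults gave 1 value for each genotype. Of the 28 members with a value of at least 10 in either library, 0 differed by over 2-fold, where 4.75% of 6859 genes were higher and 2.19% lower in tdp-1(ok803). The value was lower in tdp-1(ok803) for 25 of the 28, where 72.6% of genes were lower, and the median ratio was 0.81 for the members and 0.86 for all genes. nhr-41 had the highest ratio, with 110 in tdp-1(ok803) against 68 in wild-type animals, while nhr-1 had the lowest, with 15 in tdp-1(ok803) against 24 in wild-type. With 1 library of each genotype these differences have no replicate check.

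The J2-IP values of the genotypes were compared for genes with a J2-IP mean more than 1.5 times the input of wild-type animals in either genotype, which kept 3962 genes and 25 members. A gene could pass through high mutant values alone, so the filter and the count of rises are not independent. The mutant values were taken as scaled by the authors to the wild-type input, which could not be verified. On the deposited values 6 of the 25 members rose in tdp-1(ok803), where 42.7% of all genes rose, and 0 fell, where 8.13% of all genes fell (limma, p under 0.05 and adjusted p under 0.1). In the same comparison 6 of 6 vit- genes rose, and 2 of the 24 tested msp- genes rose and 5 fell. The summed vit- value was between 89138 and 91268 in wild-type and between 138285 and 139351 in tdp-1(ok803), and that of the 29 msp- genes in the table between 825 and 1304 in wild-type and between 777 and 1332 in tdp-1(ok803), with no gene of either list at 0 in every library. Their part in the members' values was not tested. The median of all genes was itself shifted by 0.22 on the log2 scale, above the 0.14 of the members. With median-of-ratios scaling, which removes most of that shift, 3 members rose, where 21.1% of all genes rose, and 8 fell, where 26.7% of all genes fell. When the mutant values were multiplied by the ratio of the inputs, 0 members rose, where 10.2% of genes rose, and nhr-97, nhr-61, nhr-22 and nhr-76 fell, where 22.7% of genes fell.

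nhr-256, nhr-49, nhr-35, nhr-27, nhr-66 and nhr-88 were the 6 that rose on the deposited values. For nhr-49, nhr-35, nhr-27 and nhr-66 the wild-type J2-IP mean was below 1.5 times the wild-type input. These genes entered the comparison through their mutant values alone, so their rises are not independent of the filter. Without the filter over input all 6 also rose, where 44.4% of all genes rose. Of the 6, only nhr-256, nhr-35 and nhr-27 also passed with median-of-ratios scaling. The log2 differences of nhr-49, nhr-35, nhr-27, nhr-66 and nhr-88 turned negative when the mutant values were multiplied by the input ratio. nhr-256 had J2-IP values of 13, 15 and 13 in wild-type animals against 20, 20 and 22 in tdp-1(ok803), with inputs of 8 and 6. Its log2 difference was 0.56 ± 0.10 (SE, adjusted p of 0.00707, limma), 0.35 above the shift of all genes, and 0.17 after multiplication by the input ratio (adjusted p of 0.278). In poly(A) RNA of L4 larvae the same gene had 683.2, 682.2 and 698.2 in wild-type animals against 603.2, 594.4 and 581.5 in tdp-1(ok803).

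nhr-49 had J2-IP values of 69, 63 and 65 in wild-type animals against 87, 81 and 89 in tdp-1(ok803), with inputs of 50 and 38. nhr-35 had 25, 23 and 25 against 36, 34 and 31, with inputs of 21 and 14. For both, the mutant libraries were all above the wild-type libraries and the input was lower in the mutant. nhr-66 had 85, 71 and 83 against 109, 101 and 90, and its call was lost without wild-type replicate 2 (adjusted p of 0.117) and without tdp-1(ok803) replicate 1 or 2 (0.129 and 0.125, limma). nhr-88 had 77, 81 and 85 against 85, 107 and 108, and its call was lost when any library other than tdp-1(ok803) replicate 1 was left out, with an adjusted p between 0.118 and 0.201 (limma).

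nhr-27 had the highest J2-IP values after nhr-97 on the wild-type side, with 295, 260 and 288 in wild-type animals against 410, 355 and 356 in tdp-1(ok803), and inputs of 191 and 130. Its poly(A) counts were low, from 64.41 to 330.9. Its annotated span overlaps 13 other genes, among them pgp-12, pgp-13, pgp-14, rgs-2 and gei-3, so its J2-IP and input values may hold reads of those genes. nhr-1 had 31, 27 and 34 against 33, 41 and 77, with 1 mutant library far above the others, and did not pass (adjusted p of 0.16). It passed with the replicate block (adjusted p of 0.0882) and without tdp-1(ok803) replicate 1 (adjusted p of 0.0857, limma).

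The members that fell after rescaling did not fall on the deposited values. nhr-97 had J2-IP values of 359, 351 and 369 in wild-type animals against 351, 339 and 328 in tdp-1(ok803), a log2 difference of -0.08 ± 0.05 (SE, adjusted p of 0.203) that became -0.34 with median-of-ratios scaling (adjusted p of 0.00259) and -0.52 with the input ratio (adjusted p of 0.00169, limma). nhr-61 had 32, 35 and 42 against 29, 32 and 27. Its log2 difference was -0.29 ± 0.12 (SE) on the deposited values (adjusted p of 0.108) and -0.54 with median-of-ratios scaling (adjusted p of 0.0132, limma). The direction was negative under all 3 scalings for both genes, as it was for nhr-46, nhr-114, nhr-10, nhr-22 and nhr-76.

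**Figure D5:**
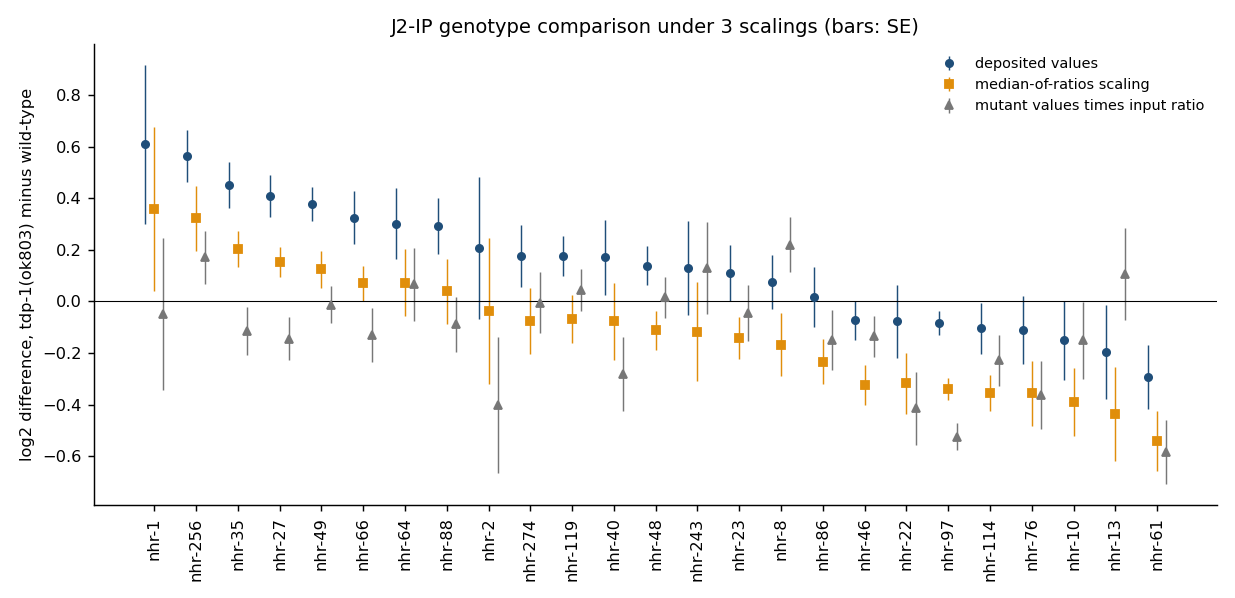
Log2 difference of the J2-IP values, tdp-1(ok803) minus wild-type, with its SE for the 25 members tested, on the deposited values, after median-of-ratios scaling and after multiplication of the mutant values by the input ratio. nhr-256 and nhr-64 stay above 0 under the 3 scalings. nhr-97, nhr-61, nhr-46, nhr-114, nhr-10, nhr-22 and nhr-76 stay below 0, while nhr-35 goes from 0.45 to 0.20 and -0.11.

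nhr-41 was not tested because its J2-IP values were below its input. The J2-IP gave 42, 36 and 45 in wild-type animals against 18, 21 and 22 in the mutant, with no overlap, and its input was 110 in the mutant against 68 in wild-type, a ratio that enters the mutant J2-IP values if they were scaled to the input. Without the filter over input 10 of the 39 members rose, where 44.4% of 8496 genes rose, and nhr-41 and nhr-4 fell, where 8.17% of genes fell. In that fit the nhr-41 log2 difference was -0.98 ± 0.12 (SE, adjusted p of 0.00218, limma), and with the mutant values multiplied by the input ratio it was -0.31 ± 0.12 (SE, adjusted p of 0.105), no longer past the threshold. In poly(A) RNA of L4 larvae its counts overlapped between genotypes.

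Regions of adenosine-to-inosine editing, a change made by ADAR enzymes on double-stranded RNA, were listed by the authors for total RNA, and 4 of the 204 regions belonged to members. The total RNA came from libraries other than the poly(A) and J2-IP ones, and their labels give a growth temperature of 20°C. The study gives the stage as L4. There was 1 library of adr-2(gv42), a mutant of the ADAR gene adr-2, beside 3 of tdp-1(ok803) and 3 of wild-type animals. The study counted a region only when its edits appeared in every replicate and were absent from adr-2(gv42). The positions are those of genome build WS220. For nhr-274 (Y41D4B.21) the listed region was an intron at chrIV:1639949-1640528 with 75 editable positions. For nhr-13 (Y5H2B.2) it was an intron at chrV:2194443-2195808 with 269 editable positions. For nhr-70 (Y51A2D.17) a 5′UTR was listed without coordinates. For nhr-14 (T01B10.4) an intron with 87 editable positions was listed on chromosome V, while RefSeq places the gene on X, so its position is uncertain.

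nhr-274 and nhr-13 were both recovered with J2 above input in wild-type, nhr-13 at an input of only 4. Neither differed between genotypes by the J2-IP test, with log2 differences of 0.18 ± 0.12 (SE, adjusted p of 0.278) for nhr-274 and -0.20 ± 0.18 (SE, adjusted p of 0.42, limma) for nhr-13. The labels give the ChIP libraries as young adults grown at 20°C, with tdp-1(ok803) as their strain. The study reports that this allele appeared to be null. It also reports TDP-1 binding from its ChIP, so the strain label is in doubt and could not be checked. The nhr-274 and nhr-13 regions overlapped no peak of the first or second TDP-1 ChIP library, or of the control library made after RNase treatment. At its listed position, which is uncertain, the nhr-14 region overlapped 2 peaks of the first library, by 29 and 90 bp. The nhr-14 region overlapped 0 peaks of the second library and 0 of the RNase control. Of the 148 regions with coordinates, 69 overlapped a peak of the first library, 9 a peak of the second and 4 a peak of the RNase control by at least 1 bp.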

How the data were processed

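Members were the genes named nhr- in the deposited tables. The members and gene lists were chosen with earlier results of these data known. The authors' poly(A) values are deposited as a signal, namely gene counts after normalization, made from reads aligned to WS220 by the study's methods. The submitters' processing notes name TopHat2 2.0.10, Bowtie2 2.1.0 and HTSeq 0.5.4p3, with no role given. Each library was divided by a factor, and steps of 0.785 to 1.34 normalized counts for each read gave whole reads for 100% of values (within 0.01 read). The deposited J2-IP and input values are a score: counts that the authors normalized and then rounded, of unknown depth. For editing the authors deposited counts of editable positions for each region beside their own genotype comparison (change, fold and p), which was not used. For ChIP the authors deposited peaks with a MACS score.

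J2-IP and input rows were joined through RefSeq locus tags (8598 of 8783 genes, all 39 members). Genotypes were compared with limma 3.58.1 (R 4.3.3), with values as log2 after adding 1, a trended variance prior, and p adjusted by Benjamini-Hochberg over all genes tested. The thresholds were an adjusted p under 0.05 for poly(A) RNA and p under 0.05 with adjusted p under 0.1 for the J2-IP. Alternatives were edgeR 4.0.16 and DESeq2 1.42.0 on the recovered reads, other scalings, a pseudocount of 10, other filters, each library left out, replicates 2 and 3 alone, and a replicate block. Deviations of same-numbered libraries from their group means correlated at 0.657, 0.435 and 0.353 in poly(A) RNA and 0.369, 0.782 and 0.535 in the J2-IP, above 0.1 for every pair. The main comparisons had no block, and the fit with the replicate number as a block was an alternative. The labels give no shared culture for the numbers. The scripts were tested on simulated data. Python 3.11.15, numpy 2.4.6, pandas 2.3.3 and matplotlib 3.10.9 were used for tables and plots.

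Named members were those in the role lists, the 5 largest rises and falls in poly(A) RNA and the 5 largest replicate 1 differences each way (mean of at least 50), the 10 highest counts, members past a threshold, the 5 highest and 5 lowest J2-IP over input, and members in the editing list. The rule asked for counts for each kb of coding length, which was not analysed here, so counts were used. nhr-4, nhr-22, nhr-181, nhr-243 and the members listed in counts of 10 or fewer were added after their values were seen. No sequences were printed, since no reference sequence was used here.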

Additional observations from a re-analysis of the deposited data

How the results depend on the processing

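In poly(A) RNA no member passed the threshold with edgeR, DESeq2, median-of-ratios or quantile scaling, a pseudocount of 10, either other filter, any library left out or the replicate block. Over all genes DESeq2 called 7 higher and 10 lower, the replicate block called 1 higher, and replicates 2 and 3 alone called 330 higher and 348 lower, 4 of the higher being members. With replicates 2 and 3 alone, 76 members had both mutant libraries above and 31 below both wild-type libraries (this alternative was added after seeing the data). The share over all genes was not counted for this split, so these counts have no baseline and are not read as a result about the members. The median log2 difference of the members ran from -0.16 to 0.23 as single libraries were left out, and that of nhr-88 from -1.11 to 0.022, the latter (reversed) without wild-type replicate 1. In the J2-IP the counts depended on the scaling. Members higher and lower numbered 3 and 8 with median-of-ratios scaling (835 and 1057 of all genes), 0 and 4 with the mutant values times the input ratio (384 and 858), and 10 and 2 without the filter over input (3772 and 694). Without the filter and with the input ratio together, an alternative added after seeing the data, they numbered 1 and 6 (1450 and 1417 of all genes). At 2-fold over input 2 members were higher (752 genes higher and 209 lower). With the input ratio, with or without the filter, the log2 differences of nhr-1, nhr-49, nhr-35, nhr-27, nhr-66 and nhr-88 reversed to -0.050, -0.012, -0.11, -0.14, -0.13 and -0.089. As single libraries were left out, 4 to 7 members were higher and 0 to 1 lower, with 1408 to 1695 genes higher and 206 to 347 lower over all genes, and the log2 difference ran from -0.21 to 0.0095 for nhr-22 and from -0.18 to 0.0069 for nhr-76, reversed without wild-type replicate 1 and replicate 3. The replicate block called 7 members higher, nhr-1 in addition, and changed no other member's call. For J2-IP over input, 5 members passed at 2-fold, 6 with an input minimum of 20, and 10 to 12 as single libraries were left out. At 1.5-fold the input ratio called 1 member higher and 2 lower. For these counts of J2-IP over input and of the input ratio, the shares over all genes were not counted. The cause of these differences between settings was not tested. Poly(A) counts near 10 are limited by depth, the depth behind the J2-IP values is unknown, and 1 input library for each genotype leaves the input without a measure of error.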
